A study of Homo sapiens with 8 samples.

Results

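Genes of DNA replication and of the G1/S transition were examined in N/TERT-1 cells, in which mRNA sequencing was used to ask how gene expression differs after mitochondrial inhibition. The 41 genes were chosen by name from 61806 genes in the deposited table, with earlier results of these data known. They cover origin licensing, helicase activation, the replicative polymerases, the sliding clamp and its loader, the G1/S cyclins and E2Fs, and chromatin assembly behind the fork. N/TERT-1 is a line of human epidermal keratinocytes immortalized with telomerase, and all 8 libraries came from WT cells of this line, with no edited gene. The 4 ethanol libraries (the vehicle control) and the 4 O/A libraries came from independent experiments, and O/A is oligomycin, an inhibitor of the mitochondrial ATP synthase, given together with antimycin A, an inhibitor of respiratory complex III. The treatment lasted 4 hours, and as both inhibitors were always given together, their parts cannot be told apart.

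Before S phase, the origin recognition complex (ORC) binds DNA and, with CDC6 and CDT1, loads the MCM2-7 helicase as an inactive double ring, a step known as licensing. At the G1/S transition, cyclin D and cyclin E kinases release the E2F transcription factors from the retinoblastoma protein, and E2F switches on many of the genes needed to copy DNA. MCM10, CDC45 and the GINS complex then turn the loaded ring into a moving helicase, polymerase alpha-primase starts each strand, and polymerases delta and epsilon extend it while held by the clamp PCNA. Keratinocytes of the basal layer divide, and they leave the cell cycle as they differentiate.

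The libraries held between 17210404 and 20999927 counts, and 14893 genes had at least 10 counts in at least 4 libraries and were tested. All 41 replication and G1/S genes passed this filter, the lowest count of any of them in any library being 52. The 8 keratinocyte markers were all expressed, with a summed level of 4010 to 4270 FPKM (fragments per kilobase of exon, scaled to library size) in ethanol and 3560 to 3730 in O/A. Of them, 2 fell (KRT5 and SFN). Of 5 differentiation markers 2 were tested, IVL fell and KRT10 rose, and their summed level was 19.5 to 21.3 FPKM in ethanol and 20.7 to 22 FPKM in O/A. Fibroblast markers summed to 2.42 to 2.95 FPKM and 2.45 to 2.69 FPKM, and melanocyte markers to 1.35 to 1.81 FPKM and 1.25 to 1.71 FPKM. Of these lists, 2 differentiation and 2 melanocyte markers were at 0 in every library. Their part in the results below was not tested.

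Replication and G1/S genes were lower in O/A or differed little, and none was called higher. A gene was called when edgeR's quasi-likelihood test gave an adjusted p of 0.05 or less (Benjamini-Hochberg over all genes tested) and its log2 fold change, O/A over ethanol, was beyond 0.25 in size. Of the 41 genes, 21 (51.2%) fell, against 18.9% of all genes tested, and 0 rose, against 15.8% of all genes. At an unadjusted p under 0.05 in edgeR, 5 were higher and 24 lower, against 4171 and 4457 of the 14893 genes tested. DESeq2 called 1 gene higher (CDC6) and 21 lower, against 2272 and 2587 of all genes tested. The median log2 fold change was -0.26 over the 41 genes and -0.00 over all genes tested, and 33 of the 41 values were below 0. Every O/A library lay below every ethanol library for 23 of the genes, against 24.8% of all genes, and above every ethanol library for 3 (E2F1, ORC6 and CDC6), against 22.8%. The cultures were sequenced in bulk, so fewer cells in S phase and less RNA per cell cannot be told apart.

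**Figure D1:**
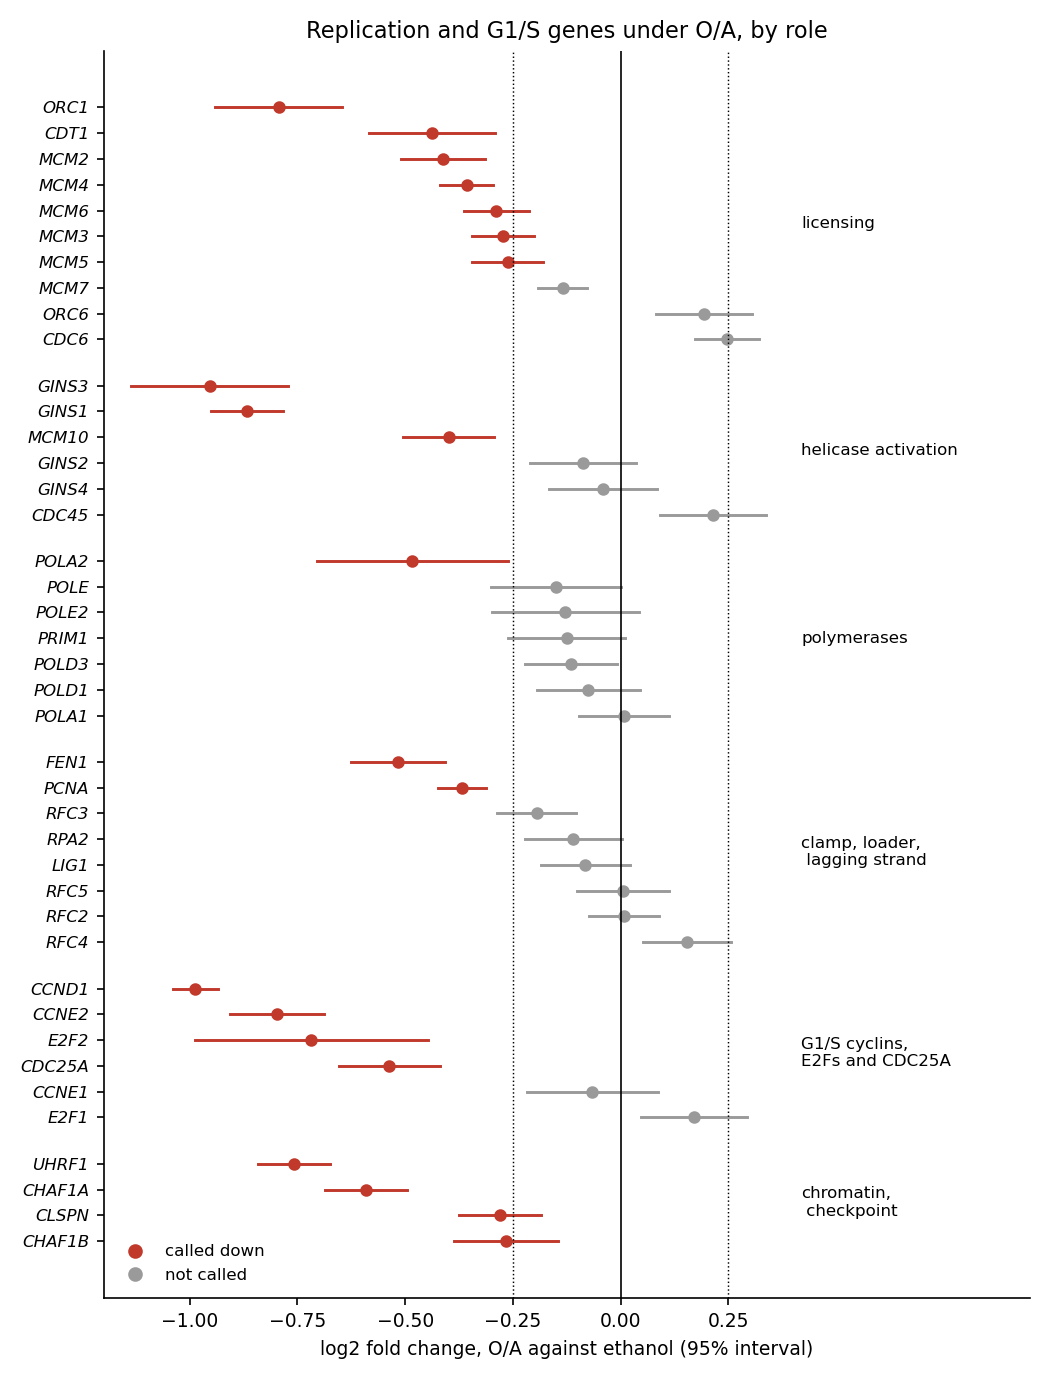
Log2 fold change (O/A over ethanol) of each of the 41 genes, grouped by role, with the 95% confidence interval from edgeR as a bar and the called genes coloured. CCND1 (-0.99) lies lowest and CDC6 (0.25) highest, and no gene to the right of 0 passes the threshold.

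Taken over all 41 genes, the summed level in TMM-scaled CPM (counts scaled to library size, which compare 1 gene across libraries) was 2478 to 2556 in ethanol and 1930 to 2036 in O/A, which is -21.4% between the means. The sum changed by -43.9% for the G1/S cyclins, E2Fs and CDC25A, and most of this was CCND1. Without CCND1, a sum added after the values were seen, that group changed by -24.7% and all the genes together by -16.5%. It changed by -30.1% for the chromatin and checkpoint genes, by -23.4% for helicase activation, by -14.7% for the clamp group and by -13.9% for licensing. The polymerase sum was 188.2 to 209.2 in ethanol and 176.8 to 192.2 in O/A, so these groups overlapped. Within ethanol the median coefficient of variation of a gene was 4.79%, with the widest spread for CDC45 (11.9%), and within O/A it was 4.88%, with the widest for POLA2 (14.1%). O/A replicate 4 was the highest of its group for 20 of the 41 genes and O/A replicate 3 the lowest for 23. By FPKM, 16 of the genes lay above 10 in ethanol, 24 between 1 and 10, and 1 (E2F2) below 1. Spearman's rho between log2 fold change and ethanol FPKM was -0.09 across the 41 genes, which share libraries and are not independent.

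**Figure D2:**
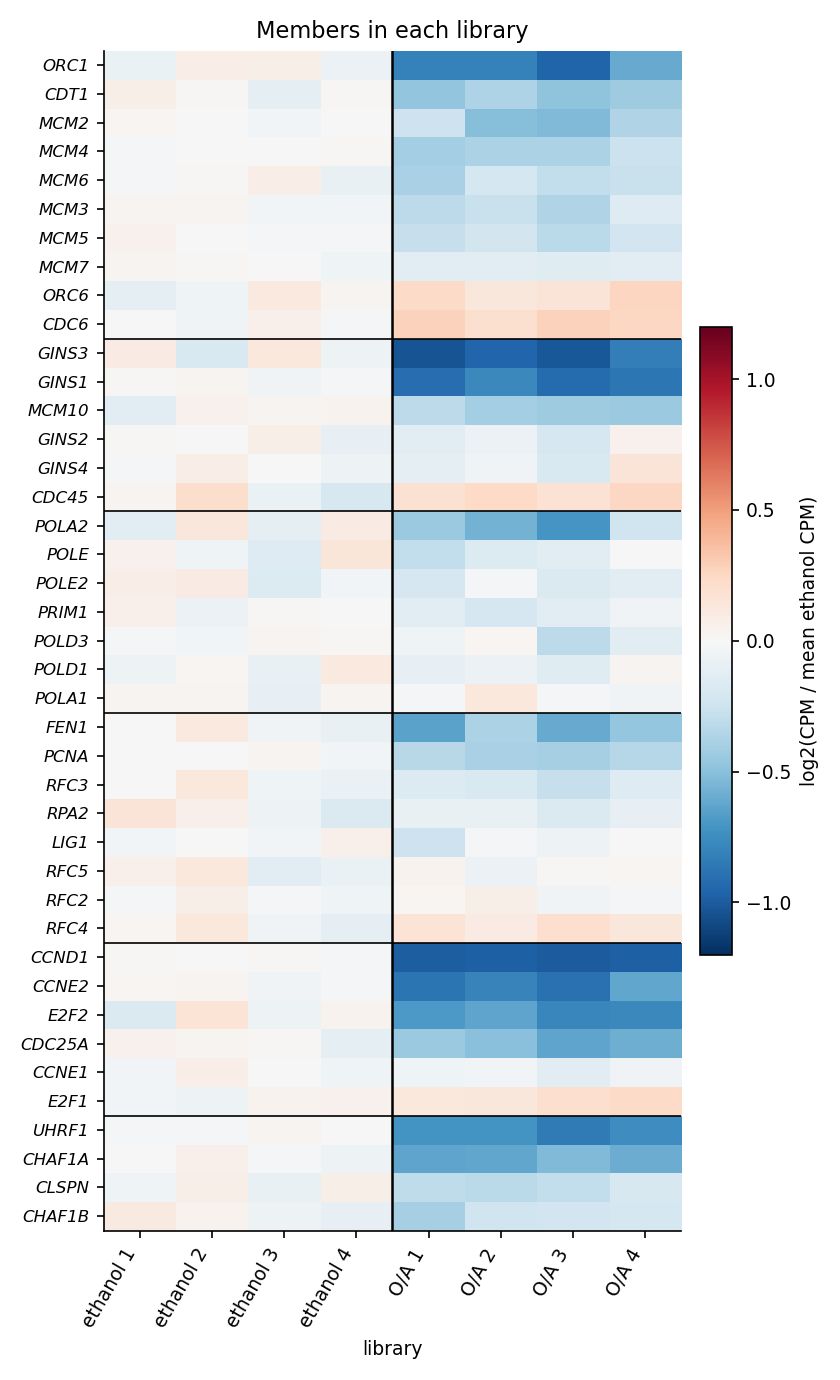
Log2 ratio of the CPM of each gene in each of the 8 libraries to the mean of the 4 ethanol libraries, with genes grouped by role and libraries in columns. The O/A columns are lower for most genes of licensing, of the G1/S group and of chromatin assembly, and near 0 for most polymerase subunits.

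Of the 6 G1/S cyclins, E2Fs and CDC25A, 4 fell (66.7%, against 18.9% of all genes tested), and their median log2 fold change was -0.63. CCND1, the D-type cyclin that couples growth factor signals to CDK4 and CDK6, stood at 382.7, 376.3, 380.9 and 371.8 CPM in ethanol and at 190.5, 191.5, 189.1 and 191.6 CPM in O/A. Every O/A library held about the same level, close to 1.98-fold below ethanol. Its log2 fold change was -0.99 (SE 0.026, adjusted p = 4.37e-35, edgeR's quasi-likelihood test), and the 2-sided exact permutation test of 4 against 4 libraries gave p = 0.0286, the smallest it can give. The gene lies on chromosome 11 (GRCh38) from 69641156 to 69654474 and overlaps LTO1 on the other strand, whose log2 fold change was 0.16 and which was not called. CCNE2, an E-type cyclin that drives CDK2, was at 42.18, 42.51, 40.27 and 41.18 CPM in ethanol and 22.6, 23.87, 22.29 and 26.9 CPM in O/A. O/A replicate 4 was the highest of them and still lay well under every ethanol library. The log2 fold change of CCNE2 was -0.80 (SE 0.054, adjusted p = 4.28e-18), and its locus overlaps INTS8 and NDUFAF6 on the other strand (log2 fold changes 0.00 and -0.15, neither called). CCNE1, its close relative with the same kinase partner, was at 13.31, 14.47, 13.67 and 13.16 CPM in ethanol and 13.17, 13.31, 12.39 and 13.28 CPM in O/A. The groups overlapped, with a log2 fold change of -0.07 (95% interval -0.22 to 0.09, adjusted p = 0.49 in edgeR). The interval lies within the threshold of 0.25, and a fall of the size seen in CCNE2 lies outside it. Per length, CCNE2 was above CCNE1 in every ethanol library (9.58 ± 0.209 against 5.63 ± 0.252 FPKM, SD, n = 4) and near it in O/A (5.35 ± 0.468 against 5.21 ± 0.181 FPKM).

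Of the E2F genes, E2F2 fell and E2F1 was not called. E2F2, an activator E2F, was the least abundant of the 41 genes and stood at 4.525, 5.72, 4.898 and 5.265 CPM in ethanol and 3.163, 3.287, 2.965 and 2.988 CPM in O/A. The groups did not overlap, with a log2 fold change of -0.72 (SE 0.13, adjusted p = 9.59e-06 in edgeR), and its counts of 52 to 112 per library make this the least precise of the called genes. E2F1, also an activator, was at 19.28, 18.96, 20.28 and 20.5 CPM in ethanol and 21.51, 21.66, 22.66 and 23.22 CPM in O/A. All O/A values lay above all ethanol values, but the log2 fold change of 0.17 (SE 0.061, adjusted p = 0.0162 in edgeR) was within the threshold. CDC25A, the phosphatase that removes inhibitory phosphates from CDK2, fell by 0.54 on the log2 scale (SE 0.058, adjusted p = 2.47e-11 in edgeR), from 28.72 to 31.94 CPM in ethanol to 19.96 to 22.72 CPM in O/A.

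**Figure D3:**
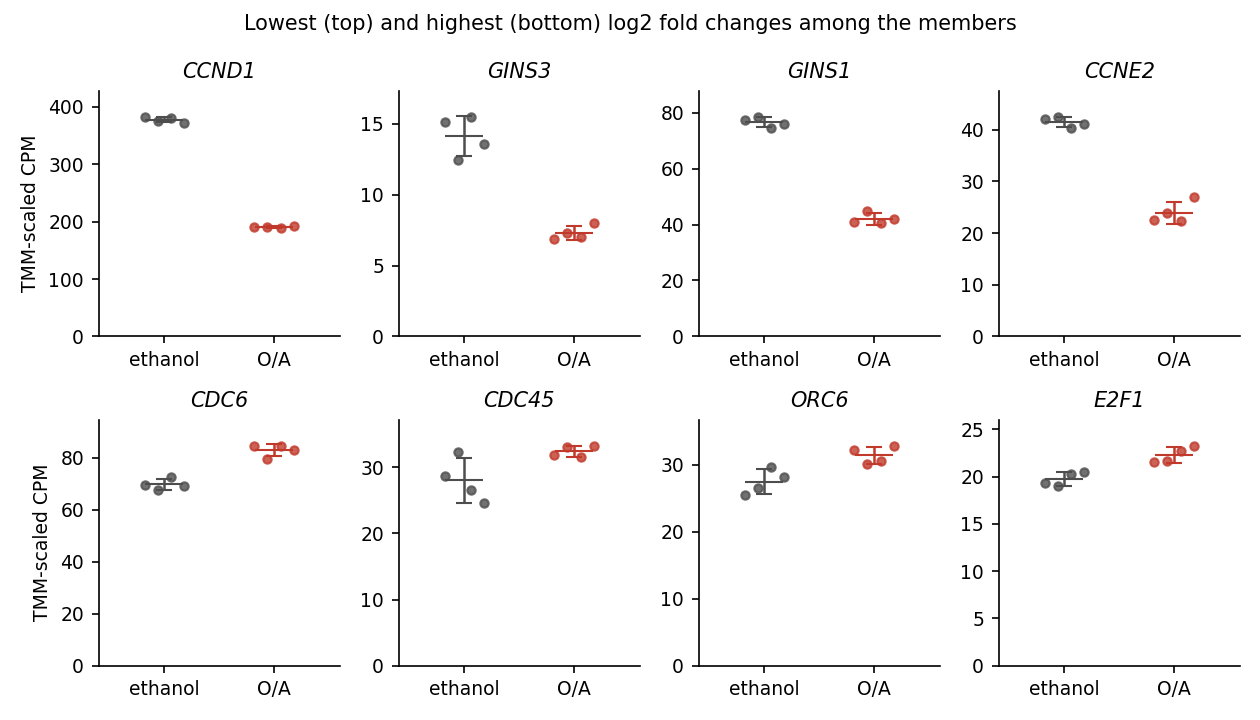
TMM-scaled CPM per library (points) with the mean and SD (horizontal line and bars, n = 4) for the 4 genes with the lowest log2 fold change (CCND1, GINS3, GINS1, CCNE2) and the 4 with the highest (CDC6, CDC45, ORC6, E2F1). The upper row shows groups that lie well apart, and in the lower row the CDC45 groups overlap.

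Of the 10 licensing genes 7 fell (70%, against 18.9% of all genes tested), and their median log2 fold change was -0.28. Among the 6 subunits of the MCM2-7 ring, 5 fell. MCM2 had a log2 fold change of -0.41 (adjusted p = 5.82e-10), MCM4 of -0.36 (1.29e-14), MCM6 of -0.29 (5.8e-09), MCM3 of -0.27 (7.96e-09) and MCM5 of -0.26 (2.46e-07), all from edgeR's quasi-likelihood test. MCM7 was at 173.8 to 183.8 CPM in ethanol and 162.4 to 164.6 CPM in O/A, so the groups did not overlap, but its log2 fold change of -0.13 was within the threshold. The ring contains 1 copy of each subunit, while the mRNAs differed in level. Per exonic length their order was MCM7, MCM3, MCM6, MCM4, MCM2 and MCM5 in both groups. In ethanol they ran from 41.6 ± 0.988 down to 8.79 ± 0.186 FPKM, and in O/A from 36.7 ± 0.282 down to 7.10 ± 0.232 FPKM. This order depends on the exonic sizes used. By CPM, MCM4 was above MCM7 in ethanol (189.6 to 194.5) and below it in O/A (144.7 to 160.9). MCM3 and MCM5 lie close to the threshold, and without O/A replicate 3 they were at -0.24 and no longer called, while MCM5 was at -0.25 and not called without ethanol replicate 1.

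Of the loaders of the ring, ORC1 and CDT1 fell and ORC6 and CDC6 were not called. ORC1, the ATPase subunit of ORC that rises at the end of G1, was at 20.36, 22.71, 22.61 and 20.54 CPM in ethanol and 12.25, 12.29, 11.06 and 14.14 CPM in O/A. The groups lay apart, with a log2 fold change of -0.79 (SE 0.073, adjusted p = 2.05e-13 in edgeR). ORC6, the smallest subunit, was at 25.48, 26.47, 29.68 and 28.11 CPM in ethanol and 32.21, 30.07, 30.55 and 32.76 CPM in O/A. Every O/A library was above every ethanol library, with a log2 fold change of 0.19 (SE 0.055, adjusted p = 0.00251 in edgeR), within the threshold. CDT1, which brings the ring to ORC, fell by 0.44 on the log2 scale (adjusted p = 1.08e-06 in edgeR), from 15.95 to 18.1 CPM in ethanol to 12.28 to 13.31 CPM in O/A. CDC6, its partner in loading, had the highest log2 fold change of the 41 genes. It was at 69.54, 67.64, 72.68 and 69.25 CPM in ethanol and 84.32, 79.64, 84.44 and 82.98 CPM in O/A. The O/A libraries were all higher, with a log2 fold change of 0.25 (SE 0.037, adjusted p = 1.02e-07 in edgeR) that stood just inside the threshold. CDC6 was called higher by DESeq2 and under median-ratio scaling, both at 0.26, and without ethanol replicate 3 (0.27) or O/A replicate 2 (0.28).

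Of the 6 genes of helicase activation 3 fell (50%, against 18.9% of all genes tested), and their median log2 fold change was -0.24. GINS is a ring of 4 small proteins, GINS1 to GINS4, that joins CDC45 and the MCM ring in the moving helicase. GINS3 was at 15.14, 12.45, 15.49 and 13.54 CPM in ethanol and 6.902, 7.328, 6.988 and 7.988 CPM in O/A, with a log2 fold change of -0.95 (SE 0.090, adjusted p = 4.31e-13 in edgeR). GINS1 was at 77.35, 78.52, 74.61 and 75.92 CPM in ethanol and 40.78, 44.94, 40.39 and 41.89 CPM in O/A, with a log2 fold change of -0.87 (SE 0.042, adjusted p = 4.61e-24 in edgeR). In both genes all O/A libraries lay far below all ethanol libraries. GINS2 was at 22.61 to 25.52 CPM in ethanol and 21.02 to 25.06 CPM in O/A, and GINS4 at 24.16 to 26.64 and 22.18 to 28.1 CPM. Their groups overlapped, with log2 fold changes of -0.09 (95% interval -0.21 to 0.04) and -0.04 (-0.17 to 0.08), so a fall of the size seen in GINS1 lies outside both intervals. MCM10, which helps the ring to open and start moving, fell by 0.40 on the log2 scale (adjusted p = 5.24e-09 in edgeR). CDC45 was at 28.66, 32.36, 26.54 and 24.54 CPM in ethanol and 31.86, 33.03, 31.6 and 33.22 CPM in O/A. Ethanol replicate 2 lay inside the O/A range, the log2 fold change was 0.21 (SE 0.061, adjusted p = 0.00293 in edgeR) and the exact permutation p was 0.0857. Without ethanol replicate 2, CDC45 was called higher, at 0.29.

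The starts of 5 of these genes are shown to let the extremes be read side by side. Among genes with an entry in the RefSeq promoter table, they are the 3 called genes with the lowest log2 fold change and the 2 genes with the highest. CCND1 and CCNE2, which had lower values than ORC1, have no entry. Each window runs from 250 bases before to 50 bases after a RefSeq transcript start (build GRCh38.p14), printed 5′ to 3′ on the gene's strand, and capitals mark matches on either strand to the E2F letters TTTGGCGC or TTTCGCGC and to the CCAAT box. The windows are chr16:58392221-58392520 (plus strand) for GINS3, chr20:25407423-25407722 (plus) for GINS1, chr1:52404374-52404673 (minus) for ORC1, chr17:40287629-40287928 (plus) for CDC6 and chr22:19479216-19479515 (plus) for CDC45.
GINS3: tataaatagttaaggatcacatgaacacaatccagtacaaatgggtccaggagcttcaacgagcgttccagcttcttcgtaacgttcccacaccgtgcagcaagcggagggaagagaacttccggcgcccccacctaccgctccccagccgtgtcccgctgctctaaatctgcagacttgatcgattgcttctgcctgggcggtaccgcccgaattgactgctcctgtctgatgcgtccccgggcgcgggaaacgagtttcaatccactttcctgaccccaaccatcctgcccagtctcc
GINS1: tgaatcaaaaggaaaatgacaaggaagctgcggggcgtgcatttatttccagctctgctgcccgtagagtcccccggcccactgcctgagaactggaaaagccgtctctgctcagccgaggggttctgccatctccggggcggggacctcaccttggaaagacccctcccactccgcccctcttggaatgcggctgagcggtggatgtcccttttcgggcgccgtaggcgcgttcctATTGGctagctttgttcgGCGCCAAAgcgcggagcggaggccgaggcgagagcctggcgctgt
ORC1: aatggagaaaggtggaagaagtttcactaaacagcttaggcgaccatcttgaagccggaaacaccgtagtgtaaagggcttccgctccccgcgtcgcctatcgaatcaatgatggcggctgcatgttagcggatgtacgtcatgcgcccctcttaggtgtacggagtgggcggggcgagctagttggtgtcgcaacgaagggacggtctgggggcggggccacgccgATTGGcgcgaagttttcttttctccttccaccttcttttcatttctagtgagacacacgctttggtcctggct
CDC6: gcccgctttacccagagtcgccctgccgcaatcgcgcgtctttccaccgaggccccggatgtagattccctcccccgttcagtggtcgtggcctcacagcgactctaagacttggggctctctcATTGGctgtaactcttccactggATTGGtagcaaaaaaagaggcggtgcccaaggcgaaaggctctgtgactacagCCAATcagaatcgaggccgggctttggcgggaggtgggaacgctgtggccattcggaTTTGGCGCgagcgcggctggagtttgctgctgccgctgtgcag
CDC45: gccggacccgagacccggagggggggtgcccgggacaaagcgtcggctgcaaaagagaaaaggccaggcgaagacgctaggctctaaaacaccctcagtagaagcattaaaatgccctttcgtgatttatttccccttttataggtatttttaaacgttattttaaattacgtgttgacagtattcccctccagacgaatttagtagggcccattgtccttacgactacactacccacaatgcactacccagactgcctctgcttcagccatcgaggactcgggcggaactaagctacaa
GINS1 and CDC6, whose log2 fold changes had opposite signs, each hold 1 E2F match, in GINS1 read on the opposite strand, and GINS1 also has 1 CCAAT match and CDC6 has 3. ORC1 has 1 CCAAT match, and the GINS3 and CDC45 windows printed here hold none of the letters searched. For CDC45 the window shown is the one nearest the gene start in the deposited table, and another of its RefSeq windows does hold CCAAT matches. The GINS3 and GINS1 starts in RefSeq lie 97391 and 16665 bases from the gene starts in the deposited table, so other transcripts of these genes can begin elsewhere.

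Of the 41 genes, 34 had an entry in that table, and CCND1, CCNE2, GINS4, MCM4, MCM5, POLD3 and RPA2 did not. Either E2F form was present in any RefSeq window of 14 of the 34 genes (41.2%), against 1.4% of the 27305 genes in the table. Matches to TTTGGCGC were found in 9 genes (26.5%, against 0.795% of all) and matches to TTTCGCGC in 6 (17.6%, against 0.63%), and in MCM6 the matches of the 2 forms overlap on opposite strands. The E2F letters were in 8 of the 17 genes that fell and in 6 of the other 17, and the CCAAT box in 10 of 17 in both sets. CCAAT was in 58.8% of the 34 genes and in 39.7% of all genes, and the letters TTTGAA of the CHR element in none of the 34 and in 18.2% of all. These are matches of letters, not measured binding.

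**Figure D4:**
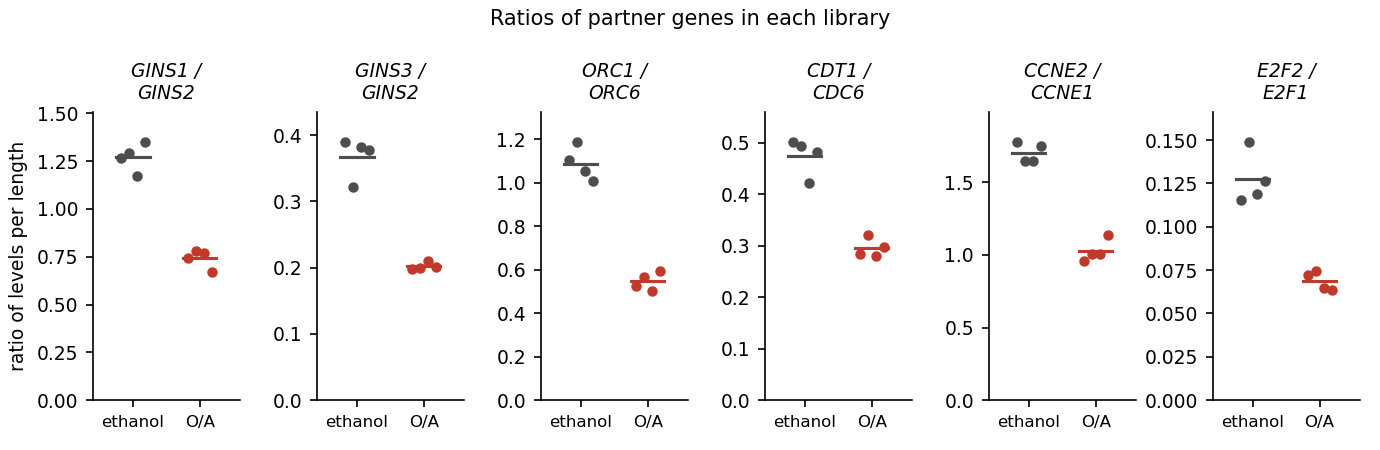
Ratio of the FPKM of 6 pairs of partner genes in each library (points), with the mean of each group as a line, for the ethanol and O/A libraries. In each panel every O/A library lies below every ethanol library, as for ORC1 over ORC6, at most 0.5959 in O/A and at least 1.01 in ethanol.

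Partners in a complex or step were also set against each other by their per-length ratio in each library. The 12 pairs were picked after the values were seen, so the ratios are a description with no test, and in all 12 the ethanol and O/A ranges did not overlap. The FPKM of GINS1 over GINS2 ran from 1.17 to 1.35 in ethanol and from 0.671 to 0.782 in O/A. By CPM, which is not divided by length, GINS1 was above GINS2 in both groups, in O/A at 40.39 to 44.94 against 21.02 to 25.06. Which gene of a pair was the more abundant thus rests on the exonic sizes used, and the transcripts expressed were not tested. GINS3 over GINS2 ran from 0.322 to 0.389 in ethanol and from 0.197 to 0.21 in O/A. ORC1 over ORC6 ran from 1.01 to 1.19 in ethanol and from 0.5001 to 0.5959 in O/A. CDT1 over CDC6 ran from 0.422 to 0.501 and from 0.280 to 0.322, so the licensing pair shifted toward CDC6. CDC45 over GINS1 ran from 0.870 to 1.11 in ethanol and from 1.98 to 2.13 in O/A. CCNE2 over CCNE1 ran from 1.64 to 1.77 in ethanol and from 0.961 to 1.13 in O/A, which is nearly equal per exonic length. For the E2Fs, E2F2 over E2F1 ran from 0.116 to 0.149 in ethanol and from 0.0634 to 0.0747 in O/A.

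The polymerases differed least in sum. Of 7 subunits of polymerases alpha, delta and epsilon and of primase, 1 fell (14.3%, against 18.9% of all genes tested). The median log2 fold change of the 7 was -0.12. POLA2, the accessory subunit of polymerase alpha, was at 7.326, 8.861, 7.405 and 8.603 CPM in ethanol and 5.924, 5.442, 4.923 and 6.839 CPM in O/A, with a log2 fold change of -0.48 (SE 0.11, adjusted p = 1.98e-04 in edgeR). Its groups lay apart, but it rests on 93 to 183 counts per library, and a gene listed on the same strand across its span, ENSG00000285816, held reads amounting to 10.9% of those on POLA2 and also fell. POLA1, the catalytic subunit of the same enzyme, was at 31.55 to 34.6 CPM in ethanol and 32.76 to 36.8 CPM in O/A, with a log2 fold change of 0.01 (95% interval -0.10 to 0.11). PRIM1, the small primase subunit, had -0.12, POLE and POLE2 of the leading-strand polymerase -0.15 and -0.13, and POLD1 and POLD3 of the lagging-strand polymerase -0.07 and -0.12. None of these 6 had an adjusted p at or below 0.05, and in all 6 the groups overlapped.

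Of the 8 genes of the clamp, its loader and lagging-strand processing, 2 fell (25%, near the 18.9% of all genes tested). PCNA, the sliding clamp, had the highest level of the 41 genes per length, with a mean of 176 FPKM (SD 3.9, n = 4) in ethanol, against 132 FPKM (SD 3.13) in O/A. It was at 245.2, 242.5, 249.6 and 238.3 CPM in ethanol and 193.4, 185.8, 184.6 and 192.6 CPM in O/A, groups that lay apart, with a log2 fold change of -0.37 (SE 0.028, adjusted p = 2.21e-16 in edgeR). FEN1, the nuclease that trims flaps of Okazaki fragments, was at 73.43 to 84.8 CPM in ethanol and 50.04 to 59.81 CPM in O/A, a log2 fold change of -0.52 (adjusted p = 1.93e-08 in edgeR). FEN1 overlaps FADS2 on the same strand over 4259 bases, which is most of its span, and FADS2, which held reads amounting to 55.2% of those on FEN1, was not called (log2 fold change 0.13). The 4 small clamp loader subunits that were members gave 0 calls in edgeR and in DESeq2. At an unadjusted p under 0.05, 1 of the 4 was lower (RFC3) and 1 higher (RFC4), against 4457 and 4171 of the 14893 genes tested. The log2 fold changes of the 4 were -0.19 for RFC3, 0.01 for RFC2, 0.01 for RFC5 and 0.15 for RFC4. LIG1, the ligase that seals Okazaki fragments, had -0.08, and RPA2, a subunit of the single-strand binding protein, -0.11, both with overlapping groups and adjusted p above 0.05.

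All 4 genes of chromatin assembly and of the fork checkpoint fell, against 18.9% of all genes tested. UHRF1, which recruits the maintenance DNA methyltransferase to new DNA, was at 71.43, 71.67, 73.82 and 72.59 CPM in ethanol and 43.94, 43.97, 40.07 and 43.22 CPM in O/A. The groups were well apart, with a log2 fold change of -0.76 (SE 0.041, adjusted p = 8.19e-22 in edgeR). CHAF1A and CHAF1B, the subunits of the histone chaperone CAF-1 that bind PCNA and histones, fell by 0.59 and by 0.27 on the log2 scale (adjusted p = 1.59e-15 and 1.81e-04 in edgeR). CHAF1B stood close to the threshold, and it was not called without ethanol replicate 1 (-0.23), ethanol replicate 2 (-0.25) or O/A replicate 1 (-0.22). It overlaps MORC3 on the same strand, which rose (log2 fold change 0.40) and held reads amounting to 375% of those on CHAF1B. CLSPN, the adaptor through which ATR activates CHK1 at stalled forks, fell by 0.28 on the log2 scale (adjusted p = 1.48e-06 in edgeR), from 45.05 to 50.21 CPM in ethanol to 38.26 to 41.89 CPM in O/A. In all, 26 of the 41 genes overlap another listed gene, 11 of them a gene holding at least 10% as many reads. Of these 11, 4 overlap it on the same strand (POLA2, PRIM1, FEN1 and CHAF1B). PRIM1 overlaps NACA over 333 bases. NACA held reads amounting to 2274% of those on PRIM1 and was not called (log2 fold change 0.07). The part of such reads in these values was not tested, and whether strand was used in counting is not given in the sources used here.

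Counted at an adjusted p of at most 0.05 alone, 23 of the 41 genes were lower, adding RFC3 and MCM7, against 27.7% of all genes tested. Likewise 5 were higher (CDC6, CDC45, ORC6, E2F1 and RFC4), against 26.0% of all genes. The other 13 genes had an adjusted p above 0.05.

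Other genes of the same steps were counted in the same way. Of 42 other replication factors, 14 fell (33.3%, against 18.9% of all genes) and 4 rose (9.52%, against 15.8%), and the median log2 fold change was -0.13. The lowest were DBF4 (-0.61), the activating subunit of the CDC7 kinase, RECQL4 (-0.51), a helicase of origin firing, and TICRR (-0.45), which links CDK activity to origin firing. The highest were RFC1 (0.74), POLD4 (0.37), a small subunit of polymerase delta, and TOP1 (0.30), a topoisomerase that relieves twist ahead of the fork. RFC1, the large subunit of the clamp loader, was at 86.12 to 92.82 CPM in ethanol and 144.8 to 156.7 CPM in O/A (adjusted p = 2.52e-25 in edgeR), while none of the 4 small subunits above was called.

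Of 33 other G1/S regulators, 32 were tested (CDKN1C was not), 8 fell (25%) and 6 rose (18.8%), and the median log2 fold change was 0.03. Both shares are near those of all genes tested, 18.9% and 15.8%. E2F7, a repressor E2F, rose from 15.7 ± 0.989 to 50.7 ± 0.639 FPKM (SD, n = 4), a log2 fold change of 1.73 (SE 0.033, adjusted p = 6.69e-38 in edgeR), the highest value on this list. E2F8 (-0.59) and E2F3 (-0.33) fell, so the called E2Fs of this list went in both directions. CDKN2B, which encodes the CDK4 and CDK6 inhibitor p15, rose by 1.19 and LIN52, a subunit of the MuvB complex, by 0.41. The lowest were CDKN2C (-1.28), another CDK4 and CDK6 inhibitor, SKP2 (-1.15), which marks the inhibitor p27 for degradation, and CCNA2 (-0.92), the cyclin of S phase and G2. Inhibitors of CDK4 and CDK6 were thus found in both directions.

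Among 16 genes of the fork checkpoint and repair, 7 fell (43.8%, against 18.9% of all genes) and 1 rose (6.25%, against 15.8%), with a median of -0.18. ATRIP (-1.41), the partner of the ATR kinase, WEE1 (-1.02), the kinase that restrains CDK1 and CDK2, and BARD1 (-0.84), the partner of BRCA1, were lowest, and HUS1 (0.34), part of the checkpoint clamp, was highest. Of 13 genes of deoxynucleotide supply, 0 fell in edgeR and 0 in DESeq2, against 18.9% of all genes in edgeR. At an unadjusted p under 0.05, 4 were lower, against 4457 of the 14893 genes tested. The 1 that rose (7.69%, against 15.8% of all genes) was RRM2B (0.53), an inducible subunit of ribonucleotide reductase. The median of the 13 was -0.01. Of 26 genes of G2 and mitosis, 24 fell (92.3%, against 18.9% of all genes) and 0 rose in edgeR, against 15.8% of all genes. At an unadjusted p under 0.05, 0 of these 26 were higher, and 0 were called higher in DESeq2. The median of the 26 was -0.65. Their lowest values were those of CCNF (-1.87), a cyclin that directs protein degradation, PLK1 (-1.37), a mitotic kinase, and KIF20A (-1.37), a motor of cytokinesis. The medians of these lists were not tested against each other.

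**Figure D5:**
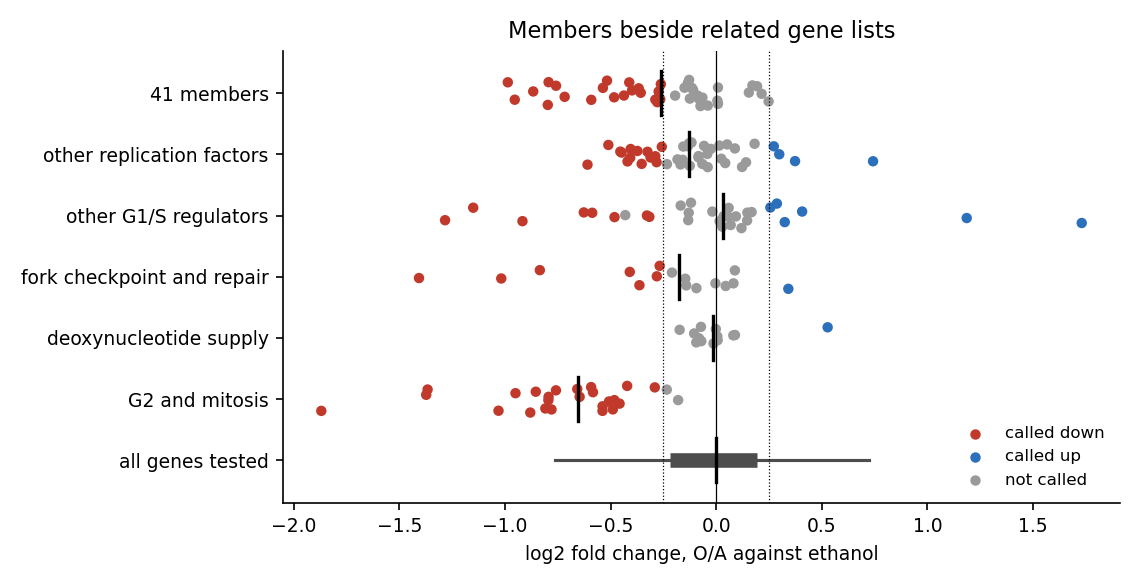
Log2 fold change (O/A over ethanol) of the tested genes of the 41-gene set and of 5 other lists, 1 point per gene, with a line at each median and, for all genes tested, a thick bar from the 25th to the 75th percentile with a thin line from the 5th to the 95th. The 41 genes have a median of -0.26, the genes of G2 and mitosis of -0.65 and those of deoxynucleotide supply of -0.01.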

How the data were processed

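mRNA was sequenced from 4 ethanol and 4 O/A libraries, grouped by their labels. Per the submitters' processing notes, the authors aligned reads to GRCh38.p13 with HISAT2 2.0.1 and counted them per gene with HTSeq 0.6.1, and the deposited counts are not normalized. The deposited FPKM values, made by the authors, were within 0.005 of the count divided by exonic size and library total. A deposited table of the authors' DESeq2 comparison (fold changes, p-values) was not used.

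Counts were scaled by TMM and tested with edgeR 4.0.16 (robust quasi-likelihood, Benjamini-Hochberg over 14893 genes) in R 4.3.3, after a check on simulated data. The standard error is the log2 fold change divided by the square root of F. Genes were kept at 10 or more counts in 4 or more libraries, and called at an adjusted p of at most 0.05 and a log2 fold change beyond 0.25. For single genes an exact permutation test, 4 libraries against 4, was run on log2(CPM + 0.5). Symbols were taken from the deposited table, or from a gene name table where it listed none. Promoter windows came from RefSeq.

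The 41 genes, the other lists and the tests were chosen with earlier results of these data known. All 41 are named, with fullest statistics for the 4 lowest called and the 4 highest log2 fold changes and for E2Fs and cyclins. As none was called higher, the 4 highest are uncalled, as are the 2 highest promoters. Of other lists, up to 3 called genes at each end are named, and E2F3 and E2F8 besides. Alternatives were DESeq2 1.42.0, limma 3.58.1 on log2(FPKM + 0.1), median-ratio scaling, no filter, the replicate block, each library left out and other thresholds. The p-values measure the spread between 4 independent experiments per group.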

Additional observations from a re-analysis of the deposited data

Results flagged for a closer look

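In 5 of 82 groups of 4 libraries (41 genes in ethanol and in O/A), 1 library stood far from the other 3 by Dixon's criterion, and chance gives about 4.1. MCM10 was at 34.64 CPM in ethanol replicate 1 and at 38.85 to 39.37 CPM in the others. POLA1 was at 31.55 CPM in ethanol replicate 3, against 34.49 to 34.6 CPM, and at 36.8 CPM in O/A replicate 2, against 32.76 to 33.3 CPM. CCNE1 was at 12.39 CPM in O/A replicate 3, against 13.17 to 13.31 CPM. CHAF1B was at 20.48 CPM in O/A replicate 1, against 22.9 to 23.33 CPM.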

How the results depend on the processing

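The 21 genes that fell were the same 21 under DESeq2, median-ratio scaling, no filter, limma on FPKM and the replicate block, 19 to 21 of them with 1 library left out, and 10 beyond a log2 fold change of 0.5. The count called higher, 0, was 1 under DESeq2 and median-ratio scaling (CDC6), 0 to 1 with 1 library left out, and 5 at the adjusted p alone. Over all genes tested, 2815 fell and 2350 rose, against 1445 and 1191 beyond 0.5, and 3868 rose at the adjusted p alone. Beyond 0.5, other replication factors gave 2 lower and 1 higher, and other G1/S regulators 5 lower and 2 higher.

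No pairing by replicate number was detectable (correlations of deviations 0.04, -0.00, -0.03 and 0.07, and only number 4 correlated best with its own). Whether same-numbered libraries came from the same experiment is not given and cannot be read from these correlations. With the replicate block, 21 of the 41 genes fell and 0 rose, and over all genes 2806 fell and 2354 rose.

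With 1 library left out, log2 fold changes ran from -0.111 to 0.0059 for GINS4, from -0.0237 to 0.0256 for POLA1, from -0.0084 to 0.0334 for RFC2 and from -0.0308 to 0.0484 for RFC5, and each changed sign, as did POLA1 (-0.034), RFC2 (-0.0382) and RFC5 (-0.0378) with limma on FPKM. The libraries whose removal did so were O/A replicate 3 for GINS4, ethanol replicate 3 and O/A replicate 2 for POLA1, ethanol replicate 4 and O/A replicate 2 for RFC2, and ethanol replicates 3 and 4 and O/A replicates 1 and 4 for RFC5. The cause was not tested. Depth limits E2F2 and POLA2 most.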
